A study of Chlamydomonas reinhardtii with 4 samples.

Results

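A group of 47 gene models of Chlamydomonas reinhardtii, of 8319 measured, was selected for a transcript level that was raised after 1 day without nitrogen and no longer raised after 3 and 4 days. A gene model is a predicted gene of the JGI 3.1 annotation and carries a number as its name. The models were selected on their log2 ratios at 24, 72 and 96 h: each model had to stand at 1 or higher at 24 h, which is at least 2-fold above the level before starvation on the same array, and at 0.5 or lower at both 72 h and 96 h. These 3 values are therefore given as a description and with no test. The glutamine synthetase gene GLN1 was left out by name, and at 0.71 at 72 h it did not meet the thresholds. The ratio at 48 h took no part in the selection. Only probes well above background in both dyes on every array, the 48 h array included, were used.

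C. reinhardtii is a single-celled green alga, and the wild type cc3491 was grown with acetate in constant light. All RNA came from cultures first grown with ammonium (TAP medium) to early stationary phase and then washed and moved to the same medium without nitrogen. There were 4 arrays, with 24, 48, 72 or 96 h of starvation in the red dye (Cy5) and RNA of 0 h, before nitrogen was removed, in the green dye (Cy3) of every array. Each time point was 1 array with pooled biological replicates and no dye swap, all on 1 slide, so that no spread between cultures was measured and a fixed dye effect of a probe cannot be told apart from a change. The single repeated measure was the 0 h signal, which differed over the 4 arrays by an SD of 0.068 on the log2 scale in the median model. In RNA of whole cultures, fewer cells with a transcript and less of it per cell cannot be told apart. Across the 4 arrays, 17101 to 18967 model probes were well above background in Cy3 and 24239 to 26786 in Cy5.

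When nitrogen runs out, Chlamydomonas raises genes for the uptake and assimilation of nitrogen, lowers genes of photosynthesis and of protein synthesis, breaks down proteins and membranes to reuse their nitrogen, and stores starch and oil. Cells can also turn into gametes.

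Of the 8319 models, 615 (7.39%) were at least 2-fold higher at 24 h. The 47 selected models made up 7.64% of these, while 309 of the 615 were still at least 2-fold higher at both 72 and 96 h. Only 5 of the 47 had a gene symbol or a functional description in the tables at hand, and 41 could be placed at a RefSeq locus through the older locus tags of the annotation. Most of the group is therefore named by model number and locus below. The 5 with a name were HSP22D, a small heat shock protein, VPS24, a subunit of the ESCRT-III complex, STR1, a strictosidine synthase, CDO1, a cysteine dioxygenase, and a protein with a C2 domain, which binds calcium and lipids.

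**Figure D1:**
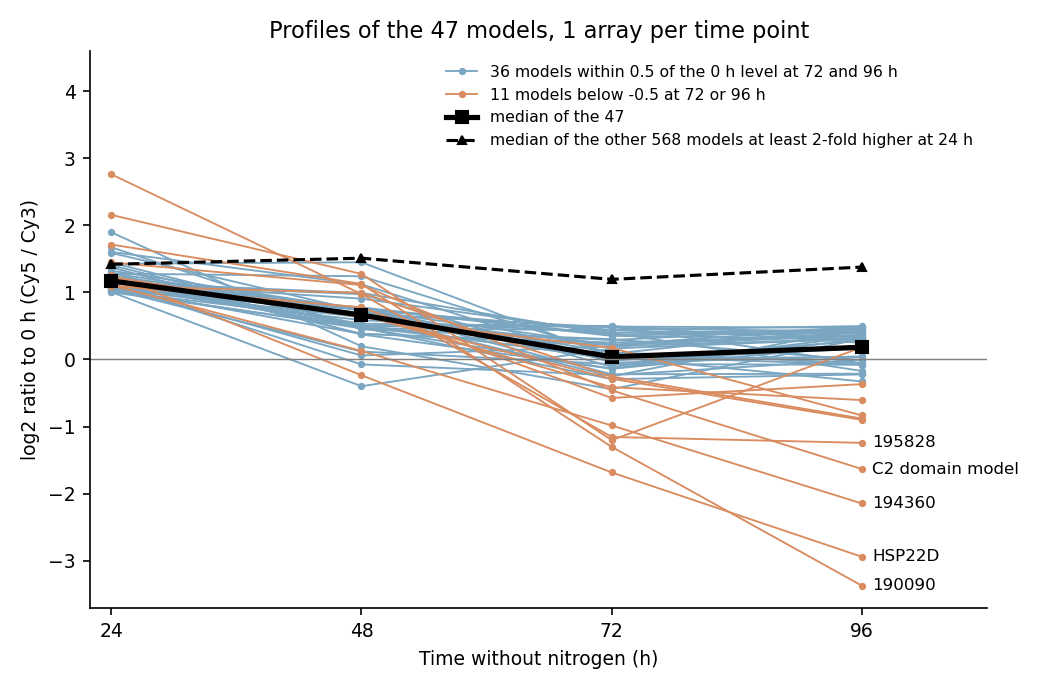
Log2 ratio to 0 h (vertical axis) at 24, 48, 72 and 96 h (horizontal axis) for each of the 47 models, 1 array per time point. Blue lines are the 36 models within 0.5 of the 0 h level at both late times, orange lines the 11 that fell below -0.5, the thick line is the median of the 47 (1.17, 0.66, 0.04 and 0.18) and the broken line the median of the other 568 models at least 2-fold higher at 24 h, which stayed between 1.19 and 1.51. Each of these 568 was above 0.5 at 72 or 96 h by the same rule, so their high late median is built into the choice.

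The probes themselves show what each value rests on. Every model had 3 probes on the array, called slots 1, 2 and 3, and probe sequences were at hand for 6 of the 47 models in the part of the study's design table that could be read. The first set is shown because slots 1 and 2 were cut from nearly the same stretch of the transcript, so that 2 matching ratios are closer to a repeat than to independent evidence. The capitals mark the stretch that slots 1 and 2 share, and all sequences run 5′ to 3′.
195452 slot 1: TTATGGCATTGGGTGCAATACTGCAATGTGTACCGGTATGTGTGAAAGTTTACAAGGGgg
195452 slot 2: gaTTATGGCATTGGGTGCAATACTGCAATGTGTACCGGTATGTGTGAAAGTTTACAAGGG
195452 slot 3: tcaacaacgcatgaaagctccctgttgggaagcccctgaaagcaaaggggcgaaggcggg
195539 slot 1: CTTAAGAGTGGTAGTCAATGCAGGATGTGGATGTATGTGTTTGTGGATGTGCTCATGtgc
195539 slot 2: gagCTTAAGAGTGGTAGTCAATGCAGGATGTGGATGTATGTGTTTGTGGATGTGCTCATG
195539 slot 3: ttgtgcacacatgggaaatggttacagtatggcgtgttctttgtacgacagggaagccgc

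The slots 1 and 2 of model 195452 (CHLRE_14g628450v5) shared 58 of their 60 bases and read 1.15 and 1.18 at 24 h, while the separate slot 3 read 0.64. At 96 h the 3 probes of this model lay between 0.40 and 0.46. In model 195539 (CHLRE_03g148750v5) slots 1 and 2 shared 57 bases and read 1.06 and 1.00 at 24 h. Its separate slot 3 read 1.26 at 24 h, 0.31 at 48 h, -0.30 at 72 h and 0.20 at 96 h, so that here a second stretch of the transcript showed the rise and the return too.

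The second set is shown because its probes disagreed. In both models slot 2 was a shorter probe of 51 bases, and each of the 3 slots was listed under a different source in the design table.
156801 slot 1: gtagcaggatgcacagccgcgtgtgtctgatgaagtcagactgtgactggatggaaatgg
156801 slot 2: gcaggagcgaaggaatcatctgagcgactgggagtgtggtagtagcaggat
156801 slot 3: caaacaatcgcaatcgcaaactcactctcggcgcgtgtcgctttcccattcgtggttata
188340 slot 1: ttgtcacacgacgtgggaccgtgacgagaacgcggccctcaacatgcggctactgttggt
188340 slot 2: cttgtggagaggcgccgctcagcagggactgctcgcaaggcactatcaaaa
188340 slot 3: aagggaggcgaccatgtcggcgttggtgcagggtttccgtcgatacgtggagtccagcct

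Slots 1 and 2 of model 156801 (CHLRE_17g705900v5) were bright, with 0 h signals of 44347 and 37525 on the 24 h array, and read 1.13 and 1.05 at 24 h. Slot 3 had a 0 h signal of 190 and read -0.48 at 24 h and between -0.07 and 0.07 afterwards. The rise of this model thus rested on the bright probes, which share a short stretch where slot 2 ends and slot 1 begins. Model 188340 (CHLRE_10g442900v5) had only slot 3 kept, which read 1.01 at 24 h and -0.17 at 96 h. Its slot 1 was well above background in both channels at 24 h but not on all arrays, and it read 0.76, 2.09, 1.34 and 1.70 over the 4 times, a profile that did not return.

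The small heat shock protein HSP22D (model 189779, CHLRE_01g020575v5) ended lowest of the 5 with a name. Small heat shock proteins hold unfolding proteins in solution until other chaperones refold them. The log2 ratio of HSP22D was 1.26 at 24 h, -0.24 at 48 h, -1.68 at 72 h and -2.94 at 96 h. Its starved signal in the kept probe was 738 at 24 h, 217 at 48 h, 88 at 72 h and 42 at 96 h, while the 0 h signal of the same probe stayed between 256 and 323. The processed ratios thus gave a 2.40-fold rise and then a level of 0.13 of the start, but the last signal was dim, and under normexp with loess the log2 ratio was 0.78 at 24 h and -1.24 at 96 h. The value rests on slot 1, and slot 3, which was above background in Cy5 on only 3 arrays, gave 1.40, -0.11, -1.66 and -3.19.

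Other chaperones and folding enzymes were measured as a list. Of the 15 other measured models of the list of chaperones, limma with Benjamini-Hochberg adjustment of the mean over the 4 times called 1 higher and 6 lower, beside 6.73% higher and 11.1% lower over all models. The list was chosen with earlier results of these data known. The related HSP22A (model 134508) was at 0.24, -1.19, -1.504 and -1.68, a mean of -1.03 ± 0.87 (SD over 4 time points, adjusted p = 0.0445 by limma). It was below HSP22D at 24 and 48 h and above it at 72 and 96 h, and its call ended without the 48, 72 or 96 h array (adjusted p = 0.14, 0.116 and 0.148 by limma) and under normexp background correction with loess, at 0.0549. CDJ4, a DnaJ-type cochaperone, was higher at all 4 times, between 1.38 and 1.98 (mean 1.71 ± 0.26, SD over 4 time points, adjusted p = 0.000432 by limma). CDJ4 and HSP22A each rested on 1 kept probe. An error in the shared 0 h RNA or a fixed dye effect would not enter these p-values. Without a background filter, where dim probes enter, the CDJ4 mean was 0.24 (adjusted p = 0.419 by limma) and that of HSP22A -0.62. The prolyl isomerases CYN38, at a mean of -3.99, and CYN20-3, at -2.37, and the chaperonin CPN10, at -2.63, were lower throughout.

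VPS24 (model 113052, CHLRE_07g324400v5) belongs to the ESCRT-III machinery, which pinches vesicles into endosomes and so delivers membrane proteins to the vacuole for breakdown. It was at 1.10, 0.78, -0.57 and -0.37 from 24 to 96 h. The kept probes read 0.81 and 1.39 at 24 h, -0.51 and -0.63 at 72 h and -0.52 and -0.21 at 96 h, so that they went the same way. Its 0 h signal on the 24 h array was 0.43 above the mean of the other arrays, and with the mean 0 h signal as the reference the 24 h value became 1.43. Under normexp with loess it was 0.57. Slot 3, which was above background in Cy3 on only 1 array, read 0.47, 0.92, 0.46 and 0.78 and did not return. VPS24 did not meet the rule with probes above background in 1 channel or without a filter, where its 24 h value was 0.81. The list of autophagy and vacuolar sorting genes, of which 3 were measured, also held VPS2A, another ESCRT-III subunit, at 0.65, 0.56, 0.31 and 0.23, and VPS33, which helps membranes fuse with the vacuole, at 1.09, 1.38, -0.46 and 1.02. Neither passed the call (limma adjusted p = 0.0264 for VPS2A at a mean of 0.44, which is below 2-fold, and 0.0926 for VPS33 at 0.76). VPS33 was called at a mean of 1.16 (adjusted p = 0.00277) when the 72 h array was left out.

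**Figure D2:**
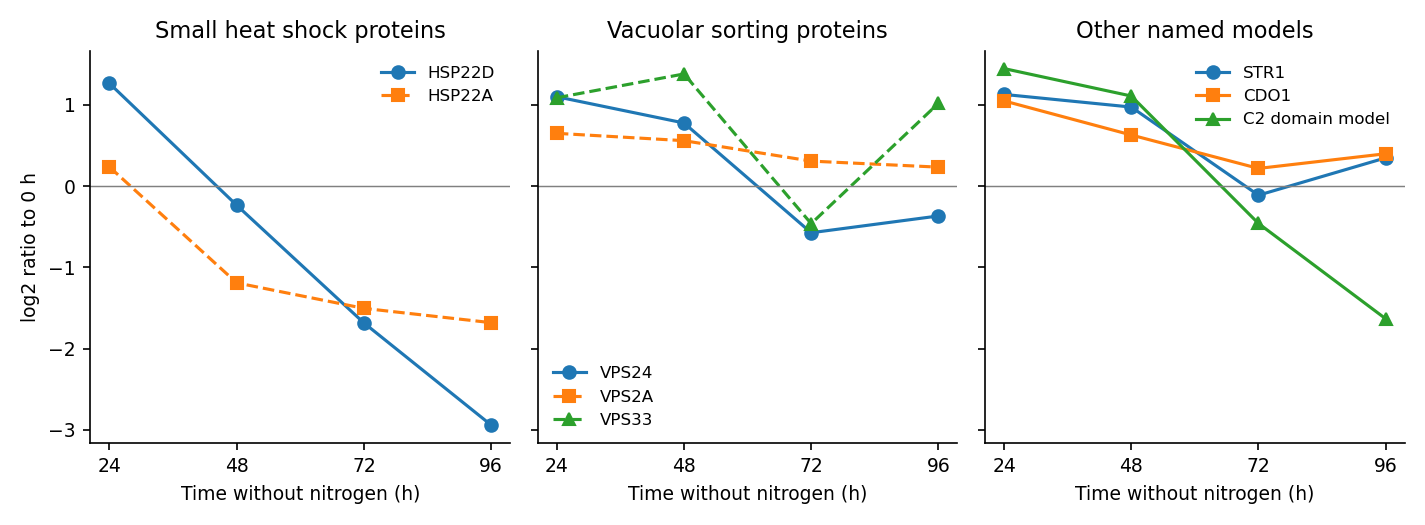
Log2 ratio to 0 h (vertical axis) against time without nitrogen in hours (horizontal axis) for the small heat shock proteins, the vacuolar sorting proteins and the other named models, 1 array per point with no error bar. Solid lines are selected models and broken lines are HSP22A, VPS2A and VPS33, which were not selected; HSP22D ends at -2.94 and CDO1 at 0.40.

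The other 3 named models differed in how far they fell. CDO1 (model 143892, CHLRE_03g174400v5) oxidises cysteine to its sulfinic acid, the first step of cysteine breakdown in animals. It was at 1.05, 0.63, 0.22 and 0.40, and its kept probes read 1.12 and 0.97 at 24 h. STR1 (model 157870, CHLRE_12g549050v5) was at 1.13, 0.97, -0.11 and 0.35 on 1 kept probe, so that most of the rise was still present at 48 h. Its dim slots 2 and 3 failed the filter in Cy3 but were above background in Cy5 on all 4 arrays. Slot 2 read 1.21, 2.28, 1.46 and 0.85 and slot 3 read 1.15, 1.60, 1.45 and 1.67, so that neither returned. STR1 did not meet the rule with probes above background in 1 channel or without a filter. In plants strictosidine synthase joins tryptamine and secologanin in alkaloid synthesis. The C2 domain model (185219, CHLRE_11g467599v5) was at 1.45, 1.11, -0.46 and -1.63, and its 3 kept probes lay between 1.42 and 1.64 at 24 h. It stood above the start by 2.73-fold at 24 h and at 0.32 of the start at 96 h.

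A sixth model can be described only by likeness. For model 106717 (CHLRE_16g692550v5) the study's probe table gives MSH4, a meiotic protein of the mismatch repair family in Arabidopsis, as the best Arabidopsis hit of slots 1 and 3. Its single kept probe was slot 2, for which that table lists no matching transcript. This probe read 1.16, 0.47, 0.44 and 0.34, and with its 0 h signal 0.40 lower on the 24 h array than on the others it gives no measure of the MSH4-like transcript.

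Most of the strongest profiles belonged to models with no name. Model 195828 (CHLRE_11g481750v5) had the highest 24 h ratio of the 47, at 2.76, a 6.77-fold rise. It was at 0.97 at 48 h, -1.15 at 72 h and -1.24 at 96 h. The starved signal of its kept probe, slot 3, was 4483, 1082, 259 and 376 at the 4 times, against 0 h signals of 662, 551, 575 and 891. Its other probes were not above background at 0 h. Model 164197 (CHLRE_09g407950v5) came next at 2.15, followed by 1.27 at 48 h, -1.20 at 72 h and 0.18 at 96 h. Its 2 kept probes read 2.14 and 2.17 at 24 h.

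Model 190090 (CHLRE_01g047265v5) had the largest fall of the group, 4.05 from 24 h to the mean of 72 and 96 h. It was at 1.71 at 24 h, 1.13 at 48 h, -1.30 at 72 h and -3.37 at 96 h. The starved signal of slot 1 went from 54818 at 24 h over 29373 and 6113 to 1506 at 96 h, while its 0 h signal stayed between 14194 and 16621. Slot 2 gave 1.66, 1.20, -1.25 and -3.28. Even the dim slot 3, which failed the filter, read 2.01, 1.92, -0.66 and -3.48, so that all 3 probes showed the same course.

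Among the 10 highest at 24 h, the remaining models mostly ended near the start. Model 187972 (CHLRE_13g575550v5) was at 1.90, 0.20, -0.44 and 0.31, on 1 kept probe. Model 192422 (CHLRE_17g721350v5) was at 1.67, 0.45, 0.30 and -0.01, on 1 probe too. Both had lost most of the rise by 48 h. Model 144973 (CHLRE_06g302050v5) was at 1.60, 1.12, -0.05 and 0.05. Model 147252 (CHLRE_12g530050v5) was at 1.59, 0.72, 0.11 and -0.06. These 2 returned within 0.11 of the start at both late times. Model 206252 (CHLRE_17g699400v5) was at 1.44, 0.51, 0.49 and -0.06, and model 181097, without a locus, at 1.43, 1.45, 0.04 and -0.33.

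The 48 h ratio was not used by the thresholds, although the 48 h array took part in the background filter. This array also shared the 0 h RNA with the others. At 48 h the 47 models had a median of 0.66, with a range of -0.40 to 1.45, beside 0.04 over all models and 1.51 over the other 568 models that were at least 2-fold higher at 24 h. There were 46 of 47 models (97.9%) below their own 24 h value, against 48.1% of the other 568. Since a model enters the group partly for a high reading at 24 h, a lower value on another array is built into the choice to some extent. A ratio of at least 1 at 48 h was found for 6 of the 47 (12.8%), beside 8.39% of all models and 84.0% of the other 568. Another 17 were at 0.5 or lower by then, and 3 were below 0.

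The highest 48 h value was that of model 181097, at 1.45 after 1.43 at 24 h. Both were the readings of slot 1, which had 1 saturated spot over the 4 arrays, in a model with a log2 0 h signal of 15.4. Its other probes read 1.64 and 0.51 at 24 h and 1.59 and 0.32 at 48 h, and without the saturated probe the model was at 1.07 and 0.96. Models 164197 (1.27), 156768 (1.24), 190090 (1.13), 144973 (1.12) and the C2 domain model (1.11) were the others at 1 or above. Model 156768 (CHLRE_17g709651v5) went from 1.28 at 24 h to 1.24 at 48 h and then to 0.08 and 0.48. Its 2 kept probes, slots 1 and 2, share 25 bases and are not fully independent. At 72 h all 6 were at 0.5 or lower, as the rule required. With saturated probes left out 5 of the 47 were at 1 or above at 48 h, and under normexp with loess 4 were.

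The lowest 48 h values were those of model 205580 (-0.40), HSP22D (-0.24), model 194519 (-0.07), model 189974 (0.06) and model 156801 (0.12). Model 205580, without a locus, was at 1.00, -0.40, 0.16 and 0.31 on 1 kept probe. Model 194519 (CHLRE_17g730750v5) was at 1.13, -0.07, -0.23 and 0.00, with 2 kept probes at 1.09 and 1.17 at 24 h. In these 5 only the 24 h array had a ratio above 0.5, which at 24, 72 and 96 h was required by the rule. Between the extremes, 44 of the 47 lay at 48 h between their 24 h value and their mean of 72 and 96 h. Both ends of this interval were values that the rule used, so the count only describes the group.

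The late values show that a return to the start describes most of the group but not all of it. At both 72 and 96 h, 36 models were within 0.5 of the 0 h level, and the medians were 0.04 and 0.18, beside 0.05 and 0.08 over all models. The other 11 were below -0.5 at 72 h or 96 h: models 195828, 164197, 190090, 186304, 190949, 152735, 194360 and 196403, the C2 domain model, HSP22D and VPS24. At 72 h 4 models were at least 2-fold below the start, beside 12.8% of all models, and at 96 h 5 were, beside 14.3%. A level at or below 0.5 was a condition of the choice, so these counts only describe it.

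The 2 late time points differed in 12 models by 0.5 or more. In 9 of them the ratio was lower at 96 h than at 72 h. Model 194360 (CHLRE_08g370900v5) was the clearest of those not yet described, at 1.11, 0.13, -0.98 and -2.15, with 3 kept probes between 1.00 and 1.12 at 24 h. Model 152735 (CHLRE_07g335250v5) was at 1.17, 0.66, -0.29 and -0.90. Model 196403 (CHLRE_06g278162v5), with the brightest 0 h signal of the group, was at 1.09, 0.99, -0.25 and -0.88, but these readings came from slots 1 and 2, which had 1 and 2 saturated spots, and its unsaturated slot 3 read 1.17, 0.77, -0.62 and -0.97. In these the decline went on to the last array. The 3 that were higher at 96 h than at 72 h were models 164197, 187972 and 184910, the last at 1.19, 0.66, -0.25 and 0.47. Its kept probes disagreed. Slot 2 read 0.61 at 72 h and 1.04 at 96 h and did not return. Slots 1 and 3 read -0.33 and -0.25 at 72 h and 0.47 and 0.39 at 96 h.

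The number of selected models is sensitive to where the thresholds stand, since 34 of the 47 were below 1.3 at 24 h and only 7 were at 1.5 or above. The models closest inside at 24 h were 172928 and 205580, both at 1.00, and the closest outside were 117669 at 0.997 and 145512 (CHLRE_16g681700v5) at 0.986. Model 145512 was at 0.13, -0.47 and -0.58 afterwards. At 72 h models 173919 and 206252 stood just inside, at 0.499 and 0.494, and 164137 and 191395 just outside, at 0.510 and 0.515. Model 191395 (CHLRE_22g754047v5) was at 2.95, 2.74, 0.52 and -0.03, a higher 24 h value than any selected model. At 96 h models 149198 and 130434 were inside at 0.498 and 0.490, and 151957 and 183109 outside at 0.508 and 0.510.

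**Figure D3:**
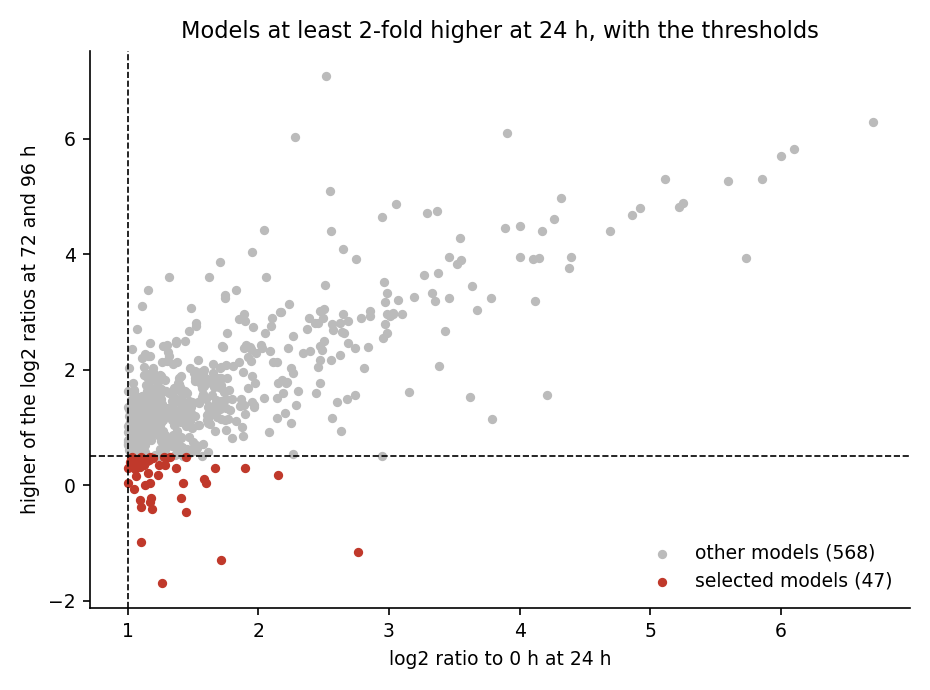
Log2 ratio at 24 h (horizontal axis) against the higher of the log2 ratios at 72 and 96 h (vertical axis) for the 615 models at least 2-fold higher at 24 h, 1 point per model. Broken lines are the thresholds; the 47 selected models (red) lie mostly close to the lower left corner, next to other models (grey) just above 0.5.

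A ratio can move through either dye, so the channels were read apart after each array's median was removed. In Cy5, the starved RNA, the median of the 47 fell by 0.60 from 24 to 48 h, by 1.19 to 72 h and by 1.00 to 96 h. In Cy3, the same 0 h RNA each time, it differed by 0.003, -0.03 and 0.02. The Cy5 signal of the late times was lower than at 24 h in 46 models at 72 h and in 47 at 96 h. Its fall to the mean of 72 and 96 h was at least 1 in 28 models, 0.5 to 1 in 15 and under 0.5 in 4. The rule asked for a fall of the ratio, and the 0 h RNA was the same on every array. A fall in Cy5 from 24 h to the late times was therefore largely built into the choice, and these counts only describe it.

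In 9 models (19.1%, beside 7.95% of all models) the 0 h signal on the 24 h array was lower by over 0.2 than on the other arrays, which raises the 24 h ratio: 206252, 143093, 143329, 187629, 173919, 106717, 140895, 189974 and 188340. Of these 8 rested on 1 kept probe, and their log2 0 h signals lay between 7.11 and 9.001, beside a median of 10.3 in the group. The fall of their Cy5 signal had a median of 0.50, against 1.19 in the other 38. Model 140895 (CHLRE_10g431550v5) was the extreme case, with a 0 h signal lower by 0.60 on the 24 h array and a Cy5 fall of 0.13, under a ratio that went from 1.10 to 0.47. With the mean 0 h signal of the 4 arrays as the reference, a choice added after the data were seen, 38 of the 47 were still at 1 or higher at 24 h. The rule then selected 53 models, 35 of them among the 47.

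**Figure D4:**
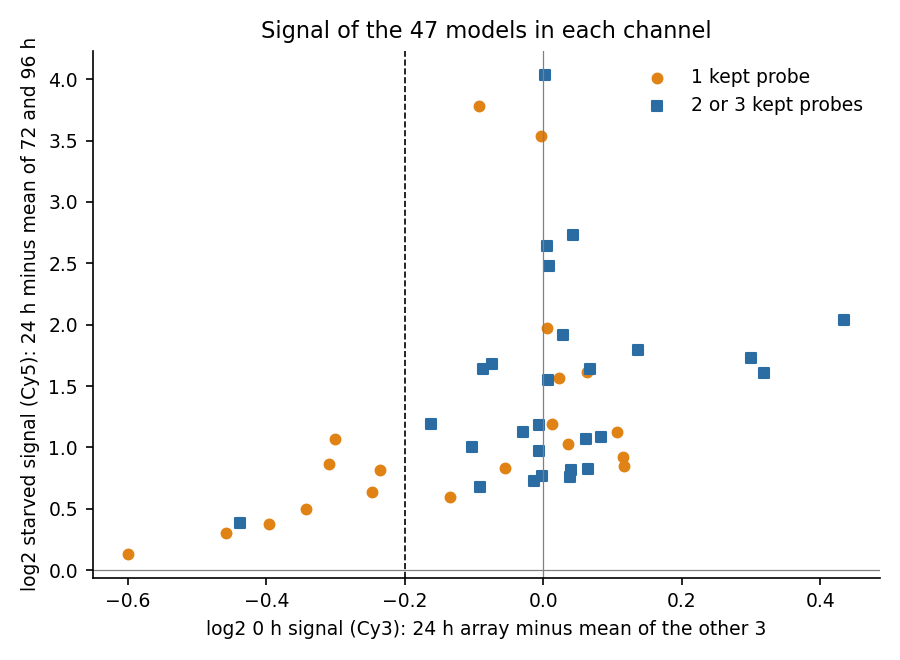
For each of the 47 models, the log2 0 h signal (Cy3) of the 24 h array minus the mean of the other 3 arrays (horizontal axis) against the fall of the log2 starved signal (Cy5) from 24 h to the mean of 72 and 96 h (vertical axis). Left of the broken line at -0.2 lie the 9 models with a low 0 h signal on the 24 h array, 8 of them with 1 kept probe (orange circles), and their Cy5 falls are between 0.13 and 1.07; models with 2 or 3 kept probes are blue squares.

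The number of probes behind a value varied. Of the 47 models 20 had 1 kept probe, 13 had 2 and 14 had 3, so that 42.6% rested on a single probe, beside 36% of all models and 28.9% of the other 568. In the 27 with more than 1, the range of the probes at 24 h had a median of 0.22, and it was under 0.3 in 18. All kept probes were above 0.8 in 20 of the 27, though the rule asked for a median of at least 1 over these same probes. In 5 the range was over 1, and in 3 a kept probe was below 0: slot 3 of model 144973 at -0.17 beside 1.65 and 1.60, slot 3 of model 190949 (CHLRE_09g387700v5) at -0.60 beside 1.18 and 1.32, and slot 3 of model 156801, shown above with its sequence. Of 53 probes not kept, 7 were well above background in both channels at 24 h, and 4 of these read at least 1.

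**Figure D5:**
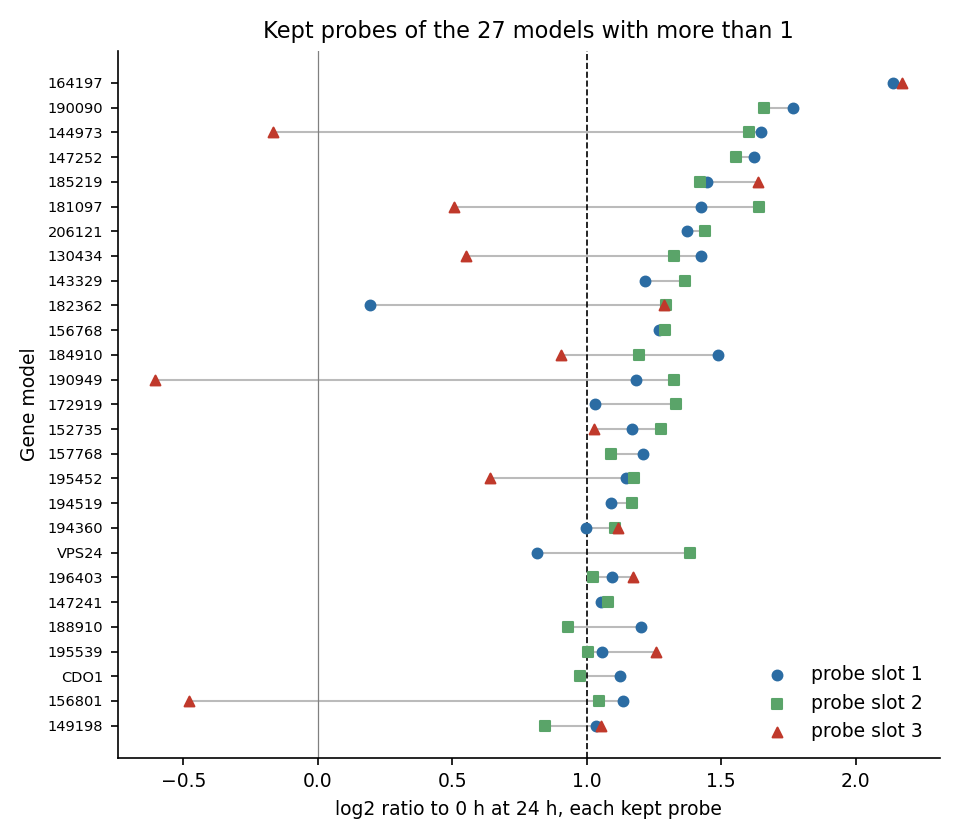
Log2 ratio at 24 h (horizontal axis) of every kept probe of the 27 models with more than 1 kept probe (vertical axis, in order of the model's 24 h value), with slot 1 as circles, slot 2 as squares and slot 3 as triangles, joined by a grey line per model. The broken line marks the threshold of 1, which the rule set for the median of these probes. Slots 1 and 2, which shared most bases in models 195452 and 195539, mostly lie together. The points below 0 are the slot 3 probes of models 144973, 190949 and 156801.

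The 40 selected models that could be placed in the RefSeq order had 80 neighbours, of which 24 were measured and 0 were selected, a count from which nothing is read, as the 47 are 0.565% of all models. At 24 h 6 of these 24 (25%) were at least 2-fold higher, beside 7.39% of all models. Model 147241 (CHLRE_12g530550v5) was at 1.07, 0.70, -0.01 and 0.16 beside GLN3, a glutamine synthetase, which joins ammonium to glutamate, at 6.10, 5.98, 5.83 and 5.79. Model 206121 (CHLRE_17g698450v5) was at 1.41, 0.48, -0.29 and -0.22 beside LCI31, a gene named for induction by low carbon dioxide, at 3.89, 3.83, 3.59 and 4.46. Model 164197 adjoined model 164198 (CHLRE_09g408000v5), at 1.88, 1.52, 0.50 and 0.86, which fell over time as well. VPS24 adjoined model 142852 at 1.52, 1.40, 0.66 and 0.71.

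Of 19 lists of genes by function 17 held none of the 47, but with the 47 at 0.565% of all models and only 5 of them named, a list of this size would seldom hold one and nothing is read from it. Of the 11 measured models of nitrogen assimilation 9 were called higher by limma and 0 lower, at medians of 4.32, 4.52, 4.18 and 4.70 over time. The linear trend of the same tool called 38 of 8319 models as falling (0.457%) and 1 as rising.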

How the data were processed

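RNA of 4 starvation times was hybridised against 0 h RNA on 4 two-colour Agilent arrays. The authors deposited the scanned arrays as read with Agilent Feature Extraction 10.7.3.1 (version from the submitters' processing notes). The deposited processed intensity of each dye was background-subtracted, detrended and dye-normalized within the array, and the deposited log10 ratio and series table hold the same values. Flags for background, saturation and controls are codes, deposited as other values. The study's further lowess step was not used here. Probes well above background in both dyes on all 4 arrays were kept (16264 of 43671), and a model's value was the median log2 of Cy5 over Cy3 of its kept probes. No array had a replicate, so differences between times have no replicate check, and the number of arrays limits the precision.

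Over all 8319 models the mean over the 4 times (3 residual degrees of freedom) and the slope per 24 h (2) were tested with limma 3.58.1 in R 4.3.3 (lmFit and eBayes, two-sided, Benjamini-Hochberg, adjusted p under 0.05 and, for the mean, at least 2-fold), on the spread between times. The fits were run on simulated data with independent arrays. That does not test whether the p-values hold for ratios that share the 0 h RNA. The fits included the selected models, for which no p-value is given, since the fitted values chose them. The study left out probes of its first-generation array, and all probes were used here, as the tables do not mark these by that name. Their choice, the gene lists and the tests were made with earlier results of these data known. Named were all members with a name, the 10 highest at 24 h, the 5 with the largest fall, the 5 highest and 5 lowest at 48 h and the 2 closest on either side of each threshold; others were named after their values were seen. Sequences came from the part of the study's probe tables that could be read, and gene names from its tables and RefSeq (v5.5). The RefSeq coordinates served only to order the loci for the neighbours, since the builds differ. Alternatives were normexp (offset 50, on median intensities) with loess (span 0.3), the deposited log10 ratio, median centring, other filters and probe summaries, leaving out each array, Holm adjustment and, added later, the mean 0 h signal as reference.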

Additional observations from a re-analysis of the deposited data

How the results depend on the processing

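The median ratios of the 47 stayed positive at 24 and 48 h under every alternative run. The number of models meeting the rule was 41 under normexp with loess, and it moved to 109 with probes above background in 1 channel, 114 with no background filter and 27 with at least 2 kept probes, the last because fewer models are valued. Of the 47, 22 met the rule under normexp with loess, whose offset draws dim ratios towards 0 by construction, 33 with 1 channel and 28 without a filter, and 11 met it in all 9 settings that give every one of them a value. These were models 195828, 164197, 190090, 144973, 147252, 185219 (the C2 domain model), 181097, 206121, 152735, 194360 and 147241. The 9 settings include the main one and the deposited log10 ratio, which holds the same values and could remove no model. Leaving out saturated probes also kept all 47. HSP22D fell below 1 at 24 h only under normexp with loess, at 0.78. Median values moved by more than the repeat of the 0 h signal as follows. Under normexp with loess they were 0.99 at 24 h, 0.42 at 48 h and 0.0598 at 96 h. With no background filter they were 1.09 at 24 h and 0.0616 at 96 h, where the median of all models also moved, from 0.05 to -0.18 at 24 h. With at least 2 kept probes they were 0.74 at 48 h, -0.0479 at 72 h and 0.046 at 96 h. With 1 channel the 72 h median was 0.11, and at 96 h slots 1 and 2 alone gave 0.11 and median centring 0.10. Models at least 2-fold higher at 24 h numbered 1160 with 1 channel. The 24 h value reversed without a background filter in model 192422 (-0.42), 170898 (-0.23), 173919 (-0.0163), 140895 (-0.29), 189974 (-0.39), 180858 (-0.55) and 205580 (-0.44), and with 1 channel in 173919 (-0.0163) and 140895 (-0.29), as probes near background enter the median. Calls by the mean over time (560 higher, 920 lower) numbered 209 under Holm and 1305 to 1571 without 1 array. Calls by the trend numbered 19 under normexp with loess, 17 with 1 channel, 0 under Holm (1282 at an unadjusted p under 0.05), and 0 to 998 without 1 array, the 998 without the 72 h array. Other causes were not tested. No paired analysis was possible because each time point had 1 array.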

Other observations

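Probes outside the filter gave values for some of the same transcripts. Slot 2 of model 165863 (CHLRE_10g428433v5) read 1.36, 1.31, 0.02 and 0.42, while its kept probe gave 1.02, 0.46, 0.29 and 0.48. Slot 3 of CDO1 read 1.35, 1.60, 1.02 and 1.01, above its kept probes at the late times. Slot 1 of model 206252 read -0.05 at 24 h, where the kept probe read 1.44. These probes were well above background in both channels at 24 h but not on all arrays.

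Model 164137 (CHLRE_05g238687v5), which missed the selection by a 72 h value of 0.510, was at 1.57, 1.31, 0.51 and -0.43, and model 151957 (CHLRE_16g688078v5), which missed it at 96 h, was at 1.43, 0.71, -0.07 and 0.51.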
